A study of Mus musculus with 3 samples.

Results

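Long noncoding RNAs that are known from the nucleus, Malat1, Neat1, Meg3, Rian, Mirg, Miat, Snhg11 and Snhg14, were followed across the cell types of the mouse olfactory bulb (OB). The 8 genes were chosen by name, with earlier results of these data known. Of these, 6 were measured among the 31055 genes counted, and Rian and Snhg14 were not analysed here. Nuclei came from 3 adult male C57Bl/6 mice. All 3 had received the same virus, retroAAV-CAG-H2B-GFP, in the piriform cortex (PCx) and the anterior olfactory nucleus (AON). The virus travels backwards along axons and expresses a fusion of histone H2B and GFP from the CAG promoter, which is active in most cell types, and green nuclei were sorted and sequenced with a droplet-based 3' kit, 1 library per mouse. There was no other group, so cell classes were compared with the mice as replicates.

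The authors had retained 31703 nuclei, with 58526996, 213891496 and 62929479 UMIs (unique molecular identifiers, which count captured RNA molecules once) in mice 1, 2 and 3, and grouped them into 22 numbered clusters. Names ending in "-like" were given from marker genes. The projection-neuron-like class, named for the mitral and tufted cells that send axons out of the OB, held 7415 nuclei or 23.4% of all. It includes 943 nuclei of an unnamed subcluster, number 2, where inhibitory markers summed to more UMIs than projection neuron markers in each mouse. The inhibitory-neuron-like class held 21325 or 67.3%. Glia-like classes followed with 1136 astrocyte-like, 972 ensheathing-glia-like, 282 oligodendrocyte-like, 151 oligodendrocyte-precursor-like (OPC-like) and 146 microglia-like nuclei, and 173 nuclei were vascular-like. Among retained nuclei, 8 to 39 cell barcodes were shared between any 2 mice. Clusters had been formed on these same counts, so tests between them do not show that the clusters exist. Each test sets the size of a difference against the spread between mice, estimated over all groups of its fit.

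These RNAs do their known work in the nucleus, where they act as scaffolds, as hosts of small RNAs, or by binding splicing factors. Malat1 collects at nuclear speckles, the stores of splicing factors, and Neat1 builds paraspeckles, bodies that hold certain RNAs and proteins. Meg3, Rian and Mirg are read from the maternal copy of the imprinted Dlk1-Dio3 domain and carry microRNAs and small nucleolar RNAs (snoRNAs), Miat (also called Gomafu) forms its own neuronal speckles, and Snhg11 and Snhg14 are hosts of snoRNAs.

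Malat1 lies on chromosome 19 (5795690 to 5802672, minus strand, GRCm38), downstream of Neat1 on the same chromosome and strand (5824708 to 5845478). Meg3 (109541001 to 109571726), Rian (109603940 to 109661716) and Mirg (109729764 to 109749460) follow each other on the plus strand of chromosome 12. Miat lies on chromosome 5 (112213228 to 112229395, minus strand), Snhg11 on chromosome 2 (158375638 to 158386145, plus strand) and Snhg14 on chromosome 7 (59307924 to 59975759, minus strand). In the GENCODE annotation Malat1, Neat1, Meg3, Mirg and Miat are lincRNAs and Snhg11 is listed as protein coding. Rian and Snhg14 are listed as processed transcripts, a class of which 10 of 790 genes were counted, against 5459 of 5854 lincRNAs. Miat and Meg3 overlap the rows Gm26953 and Gm26906 on the opposite strand, and how reads of overlapping genes were assigned is not given in the sources used here.

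The libraries were primed from runs of A, and mature Malat1 is known to end without a long poly(A) tail. The stretch of Malat1 with its longest run of A, in which the run ends 298 bases before the annotated 3' end of the 6983-base transcript, is shown for this reason, with the run of 12 A in capitals (chr19:5795958-5796029, minus strand, GRCm38, from the GENCODE transcript Malat1-201). A run of at least 12 A was found in 7.66% of 30934 transcripts. Meg3 has a longer one, of 16 A, and the other members have at most 8. The counts do not say where in a transcript a UMI began.
Malat1: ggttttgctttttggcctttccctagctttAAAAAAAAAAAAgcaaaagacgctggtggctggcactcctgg

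Miat is known for copies of ACTAAC, the sequence that splicing factor Sf1 binds at intron branch points. Its longest transcript (Miat-205, 9163 bases) holds 11 copies of ACTAAC on its own strand, or 1.20 per kb. The other members hold 0 to 4, with 0 in Malat1 and 4 in Neat1. Of 5459 lincRNA transcripts, Miat among them, 2 or 0.0366% hold as many copies as Miat. These lincRNAs were not matched to Miat in length. In a background limited to long transcripts the share was higher, at 8 of 4037 or 0.198%. The stretch with the densest copies is printed with its 4 copies in capitals (chr5:112217313-112217455, minus strand, GRCm38).
Miat: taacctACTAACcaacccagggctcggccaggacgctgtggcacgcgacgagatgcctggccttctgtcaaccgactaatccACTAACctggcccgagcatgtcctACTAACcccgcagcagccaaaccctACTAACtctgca

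Meg3 is the RNA at the start of its domain, and its promoter window, 250 bases before to 50 after the first of its 2 starts in RefSeq (GRCm38.p6), is printed for this reason. In this window (chr12:109540746-109541045, plus strand) the capitals mark TGACGTCA, the full cAMP response element, 57 bases before the start, and TATAAA, 25 bases before it. Searched on both strands, TGACGTCA was found in 1.79% of 32851 promoter windows, TATAAA in 13.6%, and both in 0.170%. The window at the second Meg3 start (chr12:109545148-109545447) holds neither motif, and neither do those of Malat1, Miat and Snhg11.
Meg3: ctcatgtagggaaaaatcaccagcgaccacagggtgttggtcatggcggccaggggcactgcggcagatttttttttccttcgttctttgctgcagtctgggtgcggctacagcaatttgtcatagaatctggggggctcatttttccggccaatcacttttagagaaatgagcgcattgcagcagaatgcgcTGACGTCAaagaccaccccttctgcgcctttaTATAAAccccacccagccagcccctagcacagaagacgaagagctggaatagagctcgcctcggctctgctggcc

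The Mirg gene spans 14 microRNA genes with 26 mature sequences in RefSeq, which the Mirg counts stand next to but do not measure. The seed (bases 2 to 8, which pair with targets) is in capitals. Only miR-453 and miR-496a-5p of the 26 share a seed, and miR-134-5p and miR-410-3p, both known from neurons, are shown beside them (plus strand, GRCm38.p6, in this order chr12:109735669-109735692, chr12:109739132-109739152, chr12:109734145-109734166 and chr12:109743764-109743784).
mmu-miR-453: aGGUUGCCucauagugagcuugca
mmu-miR-496a-5p: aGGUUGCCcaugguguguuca
mmu-miR-134-5p: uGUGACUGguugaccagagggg
mmu-miR-410-3p: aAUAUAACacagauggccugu

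The 6 measured genes together took 8.72%, 10.3% and 11.1% of all UMIs in mice 1, 2 and 3. They are not abundant as a group. In projection-neuron-like nuclei Malat1, Meg3 and Snhg11 ranked 1, 3 and 6 by UMIs, whereas Mirg ranked 836, Miat 2058 and Neat1 12786 of 31055 genes. Per kb of exon, the mean level there was 11852 CPM (UMIs per 1000000 UMIs) for Malat1, 779 for Snhg11, 585 for Meg3, 24.1 for Mirg, 8.86 for Miat and 0.133 for Neat1. A 3' kit counts transcript ends, so the level per kb depends on the annotated length.

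Malat1 was the most frequent RNA in every class, both by UMIs and per kb of exon. In projection-neuron-like nuclei it took 7.61%, 8.28% and 8.94% of UMIs in mice 1, 2 and 3, and in inhibitory-neuron-like nuclei 7.63%, 9.79% and 10.5%. In oligodendrocyte-like nuclei it took 11.6%, 13.0% and 17.8%, the highest class mean (14.2% ± 3.24, SD, n = 3 mice), and in microglia-like nuclei 3.10%, 6.93% and 7.75%, the lowest (5.93% ± 2.48). Mouse 1 was the lowest in 8 of 8 classes and mouse 3 the highest in 8 of 8. All 7 neighbouring pairs in the order of class means overlapped. The oligodendrocyte-like libraries nevertheless lay above every library of 5 other classes. Within each mouse, oligodendrocyte-like nuclei were also the highest class and microglia-like nuclei the lowest. What sets mouse 1 apart was not tested.

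**Figure D1:**
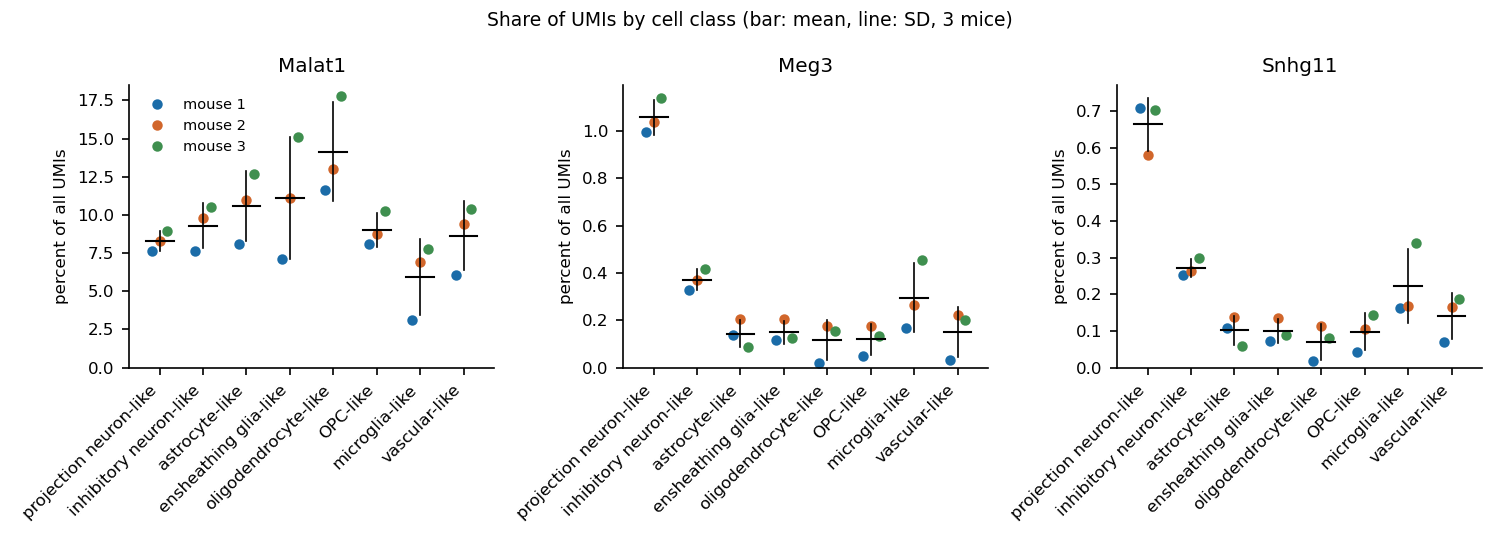
Percent of all UMIs taken by Malat1, Meg3 and Snhg11 (vertical axes) in 8 cell classes (horizontal axes), with 1 point per mouse, a bar at the mean and a line of 1 SD over 3 mice. Mouse 1 is the lowest point for Malat1 in every class, and Meg3 and Snhg11 stand higher in projection-neuron-like nuclei than in any other class.

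Over the 21 clusters with at least 10 nuclei in each mouse, Malat1 did not pass the edgeR F test for any difference (adjusted p 0.30), whereas the other 5 members did. Such a difference was found for 86% of the 16622 genes tested, so that passing is common and Malat1 belongs to the minority. Its call depended on the fit, since the adjusted p was 0.020 by edgeR with the mouse as a replicate block, 9.9e-05 by DESeq2 and 0.033 by edgeR without mouse 1. The microglia-like cluster, with the lowest mean, holds 19, 103 and 24 nuclei in mice 1, 2 and 3.

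Within projection neurons Malat1 did differ between subclusters (edgeR adjusted p 0.0035). The 10 subclusters were named from markers of the mitral (M), tufted (T) and external tufted (ET) types and of periglomerular cells. A name needed at least 3 markers and more than a share of 0.5 of those listed for the type, and 2 stayed unnamed. Subcluster 9 (89 nuclei) was periglomerular-like, and its nuclei were counted in the inhibitory-neuron-like class. With 9 and 8 nuclei in mice 1 and 3 it did not enter the fits. The ET2-like subcluster was highest, with 10.4%, 10.8% and 13.2% of UMIs, and the ET4-like subcluster lowest, with 5.27%, 7.24% and 7.21%. These 2 subclusters did not overlap, and all 9 neighbouring pairs of subclusters did. The test for any difference between subclusters was passed by 6 of 6 members and by 66.6% of 13715 genes.

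Malat1 was also higher in nuclei with more UMIs. Nuclei were split by UMI total into 4 equal bins within each cluster and mouse, and the bins were summed per class. Among projection-neuron-like nuclei, the bin with the fewest UMIs had Malat1 at 5.85%, 7.29% and 7.58% in mice 1, 2 and 3, and the bin with the most had 8.66%, 8.83% and 9.44%. Among inhibitory-neuron-like nuclei these bins stood at 6.10%, 8.30% and 9.69% against 8.50%, 10.4% and 10.5%. The Malat1 share was thus higher in the deeper bin in 3 of 3 mice in both classes, while the 2 classes differ in median depth (15305 and 7777 UMIs). Meg3 was also higher in the deeper bin in each mouse in both classes. Mirg and Snhg11 were so among inhibitory-neuron-like nuclei. Among projection-neuron-like nuclei, Snhg11 was lower in the deeper bin in each mouse, and Mirg went either way. A bin is chosen by the UMI total that is also the denominator, and the part of depth in the class values was not tested.

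Neat1, the paraspeckle scaffold, was far higher in non-neuronal classes than in neurons. In oligodendrocyte-like nuclei it stood at 604, 460 and 758 CPM in mice 1, 2 and 3, and in vascular-like nuclei at 542, 208 and 272 CPM. Projection-neuron-like nuclei had 1.97, 3.27 and 3.03 CPM and inhibitory-neuron-like nuclei 2.20, 3.48 and 3.63. The classes between them were microglia-like (195, 62.2 and 94.7 CPM), astrocyte-like (65.2, 53.0 and 83.8), ensheathing-glia-like (67.3, 40.4 and 94.4) and OPC-like nuclei (16.4, 17.1 and 8.15). All 6 non-neuronal classes lay above all neuronal libraries, although the 8.15 CPM of OPC-like nuclei in mouse 3 is 1 UMI in 10 nuclei, under the 24.5 CPM that a count of 0 would allow there. The OPC-like values lay below the 5 other non-neuronal classes without overlap. The order among oligodendrocyte-like and vascular-like nuclei, and that among microglia-like, ensheathing-glia-like and astrocyte-like nuclei, was within the spread between mice.

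At an equal depth of 2000 UMIs per nucleus, Neat1 would be found in 59.5% ± 6.14 (SD, n = 3 mice) of oligodendrocyte-like and 31.6% ± 5.45 of vascular-like nuclei. The same share was 0.521% ± 0.0511 in projection-neuron-like and 0.597% ± 0.143 in inhibitory-neuron-like nuclei. With all UMIs it was 74.7% in oligodendrocyte-like nuclei (median 5441 UMIs) and 3.48% in projection-neuron-like nuclei (median 15305). Neurons thus had the lowest share at either depth. Within projection neurons Neat1 ranged only from 0.897 CPM in ET1-like to 4.20 in ET2-like nuclei among named subclusters. It had 0 UMIs in the M1-like library of mouse 1, which allows up to 18.6 CPM, and in the ET2-like library of the same mouse, which allows up to 3.47 CPM (3 counts, counting error only). Neat1 passed the test for any difference between subclusters (edgeR adjusted p 0.0015), a call that was lost without mouse 2 (0.098) or mouse 3 (0.077).

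**Figure D2:**
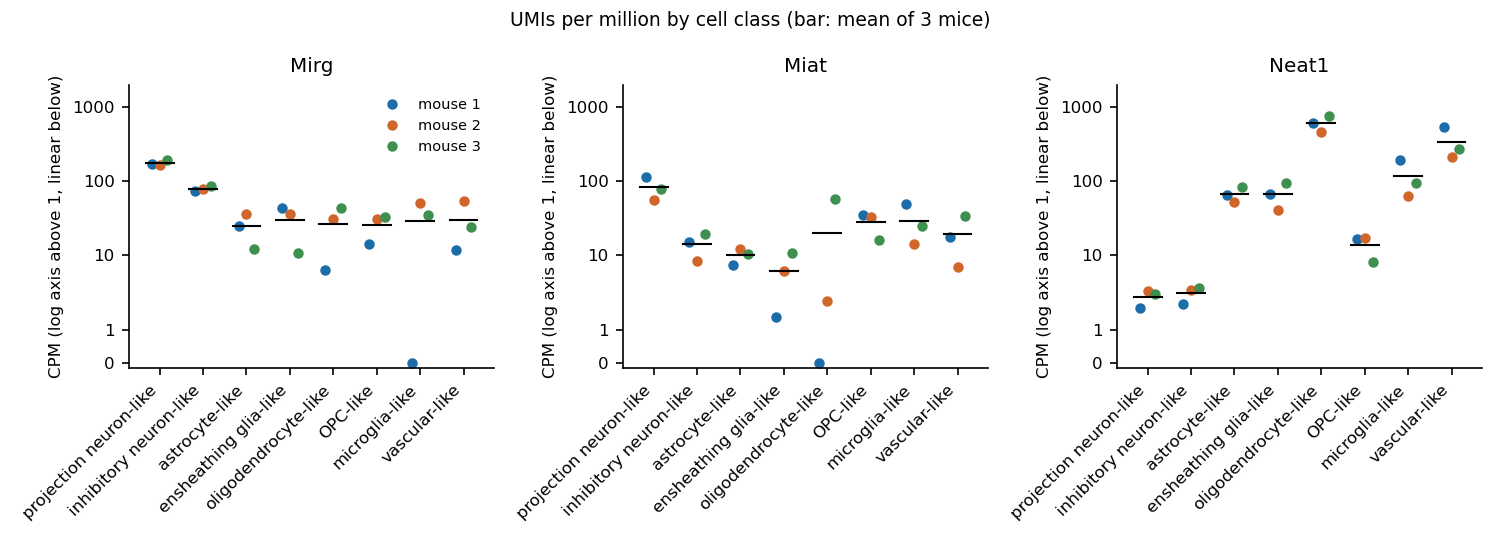
CPM of Mirg, Miat and Neat1 (vertical axes, logarithmic above 1 and linear below) in 8 cell classes (horizontal axes), with 1 point per mouse and a bar at the mean of 3 mice. Mirg and Miat have their highest means in projection-neuron-like nuclei (176 and 82.4 CPM), whereas Neat1 has its highest mean in oligodendrocyte-like nuclei (607 CPM).

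Meg3, the first of the maternal RNAs of the Dlk1-Dio3 domain, had its highest class level in projection neurons. It took 0.996%, 1.04% and 1.14% of UMIs in projection-neuron-like nuclei of mice 1, 2 and 3, against 0.327%, 0.372% and 0.417% in inhibitory-neuron-like nuclei. The 2 classes did not overlap. Within the mice the ratio was 3.05, 2.79 and 2.73. In the non-neuronal classes the means lay between 0.117% in oligodendrocyte-like and 0.295% ± 0.145 in microglia-like nuclei, and mouse 1 was the lowest in 7 of the 8 classes. Single inhibitory-neuron-like clusters reached the range of projection neurons. Cluster 17 had 0.912%, 0.927% and 1.09% and cluster 6 had 0.6999%, 0.763% and 0.870%, against 0.673%, 0.753% and 0.844% in the lowest projection neuron cluster, cluster 4. Cluster 17 carried the 8 inhibitory markers, but its median of 16912 UMIs is above the 7777 of its class, and doublets were not called.

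Mirg, at the far end of the same domain, followed the same order among neurons at a much lower level. It stood at 171, 166 and 190 CPM in projection-neuron-like nuclei and at 73.2, 78.5 and 86.9 CPM in inhibitory-neuron-like nuclei, without overlap. The non-neuronal class means lay between 24.6 and 30.2 CPM. The inhibitory-neuron-like cluster 17 ranked 3 of the clusters, at 203, 192 and 181 CPM. Microglia-like nuclei of mouse 1 had 0 Mirg UMIs, which allows up to 48.7 CPM.

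Snhg11, a host gene with 2 snoRNA genes in its interval, showed the same division. It took 0.709%, 0.580% and 0.702% of UMIs in projection-neuron-like nuclei and 0.253%, 0.264% and 0.300% in inhibitory-neuron-like nuclei, again without overlap. Cluster 17 again stood among the projection neuron clusters, at 0.639%, 0.538% and 0.638%. Oligodendrocyte-like nuclei had the lowest mean, at 0.0701% ± 0.0480. Mouse 2 was the lowest of the projection neuron libraries for Snhg11, whereas mouse 1 was the lowest for Meg3.

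Miat, which binds splicing factors, was the member that separated neuron types most. Projection-neuron-like nuclei had 112, 56.2 and 78.8 CPM in mice 1, 2 and 3, and inhibitory-neuron-like nuclei 15.1, 8.40 and 19.1. The mice spread more than for Meg3, but the classes did not overlap and the within-mouse ratio was 7.41, 6.69 and 4.11. High levels were not limited to clusters named projection-neuron-like, since the inhibitory-neuron-like cluster 17, with 190 nuclei, had 180, 135 and 164 CPM. That overlapped with the highest projection neuron cluster, cluster 5, at 218, 150 and 170 CPM. Cluster 17 had a median of 16912 UMIs, above the 7777 of its class. Doublets were not called, and whether it mixes nuclei of both classes was not tested.

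The first comparison asked how projection neurons differ from the inhibitory neurons sorted with them, with UMIs summed per mouse and class. The fit also held the 5 glia-like classes, and all classes shared an estimate of the spread for each gene. The SE thus reflects the glial libraries too, where Meg3 ran from 217 to 4525 CPM. Meg3, Snhg11, Mirg and Miat were called higher in projection-neuron-like nuclei, 4 of 6 members, against 23.7% of 12754 genes called in either direction and 12.8% called higher. The log2 fold change was 2.72 for Miat (SE 0.37, edgeR adjusted p 1.8e-06), 1.68 for Meg3 (SE 0.58, 0.023), 1.46 for Snhg11 (SE 0.52, 0.027) and 1.32 for Mirg (SE 0.32, 0.0017). Malat1 (SE 0.66) and Neat1 (SE 0.31) both had a log2 fold change of 0.00 (edgeR adjusted p 1), and across the alternatives it took either sign, from -0.17 to 0.05 for Malat1 and from -0.16 to 0.06 for Neat1. Libraries of the 2 classes did not overlap for 4 of 6 members and for 69.7% of all genes, 27.5% higher and 42.2% lower in projection-neuron-like nuclei. At the adjusted p alone the same 4 members passed, against 39.1% of genes. The classes differ in median depth (15305 and 7777 UMIs), and the part of depth in these calls was not tested.

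The calls for Meg3 and Snhg11 were lost without mouse 2 (edgeR adjusted p 0.11 for both) or mouse 3 (0.11 and 0.10), and that for Snhg11 also without nuclei of more than 3 times the median UMIs (adjusted p 0.056). Of genes called, 54.0% were higher in projection neurons with TMM scaling and 42.8% with library size, which moved the median of all genes from 0.03 to -0.14. Projection-neuron-like nuclei of subcluster 2 (943 nuclei) carried the 8 inhibitory markers at 2226, 2528 and 1964 summed CPM in mice 1, 2 and 3. The 7 projection neuron markers stood at 717, 612 and 668 summed CPM there. Without subclusters 2 and 8 the 4 calls stood, with log2 fold changes of 1.38 for Mirg to 2.80 for Miat.

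The second comparison set the 5 glia-like classes against both neuron classes, 15 libraries against 6. Neat1 was called higher in glia and Meg3, Mirg, Snhg11 and Miat lower, 5 of 6 members, against 19.5% of 12754 genes called, 9.45% higher and 10.1% lower. For Neat1 the glial libraries ran from 8.15 to 758 CPM with a median of 67.3, and the neuronal ones from 1.97 to 3.63 with a median of 3.15, which edgeR put at 4.55 on the log2 scale (SE 0.25, adjusted p 8e-13). For Mirg they ran from 0 to 51.5 CPM (median 30.6) and from 73.2 to 190 (median 127), and edgeR gave a log2 fold change of -2.25 with an SE of 0.21 (adjusted p 7.6e-09). Without OPC-like and microglia-like nuclei, an alternative chosen after seeing the data, the Neat1 log2 fold change was 5.29. Neat1 and Mirg libraries did not overlap between glia and neurons, which held for 2.7% of all genes, 1.18% higher and 1.51% lower in glia. At the adjusted p alone the 5 members passed, against 44.4% of genes.

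Meg3, Snhg11 and Miat overlapped between glia and neurons. Meg3 had a log2 fold change of -2.27 (SE 0.31, edgeR adjusted p 2.1e-06), Snhg11 one of -2.22 (SE 0.28, 7.5e-07) and Miat one of -1.73 (SE 0.29, 2.7e-05). For Malat1 it was -0.09 (SE 0.39, edgeR adjusted p 0.89), and from -0.22 to 0.20 across the alternatives. Of genes called, 48.4% were higher in glia with TMM scaling, 66.2% with library size and 64.6% with DESeq2, and library size moved the median of all genes from -0.07 to 0.17. The direction of the 5 called members was the same under these scalings.

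RNA of neurons was found in the glial libraries too. The 8 inhibitory neuron markers summed to 343 to 2883 CPM (median 1657) in the 15 glial libraries, against 6041 to 6545 CPM in the inhibitory libraries of the same mice. All 8 markers had UMIs in 12 of the 15, and Dlx1 or Dlx2 were at 0 in the other 3. As a percent of the level in inhibitory-neuron-like nuclei of the same mouse, these markers stood at 5.68% to 44.7% and Meg3 at 6.65% to 109%. The median astrocyte-like nucleus had a Meg3 share of 0%, 0.0324% and 0.0165% in mice 1, 2 and 3, below the summed shares of 0.139%, 0.204% and 0.0883%. Without nuclei of more than 3 times the median UMIs, the log2 fold changes were -3.11 for Meg3, -3.06 for Snhg11, -2.89 for Mirg and -2.49 for Miat, and the Meg3 share in microglia-like nuclei was 0.0685% in place of 0.295%. The part of neuronal RNA in the glial levels was not tested further.

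**Figure D3:**
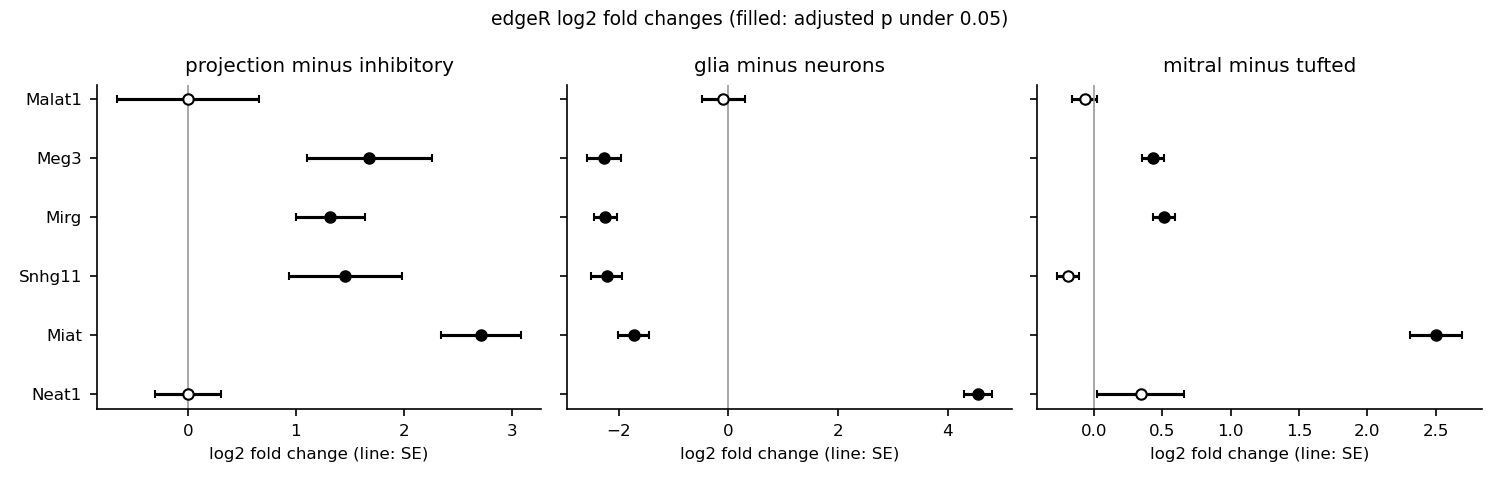
edgeR log2 fold changes (horizontal axes, with a line of 1 SE on each side) of the 6 measured genes in 3 comparisons, filled where the adjusted p is under 0.05. Miat has the largest positive value in the projection and mitral panels (2.72 and 2.50), and Neat1 is the member with a positive value that passes in the glia panel (4.55).

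The third comparison asked what separates mitral from tufted cells, with the mean of 3 mitral-like subclusters against that of 4 tufted-like ones. Miat alone was called, 1 of 6 members, against 9.25% of 13715 genes, 5.69% higher in mitral-like and 3.57% lower. It ran from 31.8 to 228 CPM in the 9 mitral-like libraries (median 69.1) and from 1.37 to 70.1 CPM in the 12 tufted-like libraries (median 23.7). The ranges overlapped, and the log2 fold change was 2.50 (SE 0.19, edgeR adjusted p 7.2e-12).

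Meg3 and Mirg passed the adjusted p without reaching a fold of 2, as 29.6% of genes did with or without that fold. The log2 fold change was 0.43 for Meg3 (SE 0.08, edgeR adjusted p 3.9e-05) and 0.51 for Mirg (SE 0.08, 8.1e-06). Within the mice, mitral-like nuclei had 1.30 to 1.35 times the Meg3 level and 1.30 to 1.42 times the Mirg level of tufted-like nuclei. Snhg11 leaned the other way, with a log2 fold change of -0.19 (SE 0.08, edgeR adjusted p 0.065), which passed with the mouse as a replicate block (-0.18, adjusted p 0.014). Malat1 (-0.07, SE 0.09, edgeR adjusted p 0.66) and Neat1 (0.34, SE 0.32, 0.49) did not pass. Libraries overlapped for 6 of 6 members, as for all but 0.751% of genes, 0.525% higher and 0.226% lower.

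The subclusters behind these means differed more than the means. Miat was highest in the M2-like subcluster, at 228, 183 and 184 CPM, above every library of the other 9 subclusters, of which the next was subcluster 2 of mouse 1 at 103 CPM. It stood at 55.7, 71.9 and 69.1 CPM in M1-like and 52.6, 31.8 and 49.9 in M3-like nuclei, overlapping with the T1-like ones (70.1, 36.1 and 48.0). The external tufted types were lower, with 34.7, 29.4 and 24.0 CPM in ET2-like, 23.3, 15.1 and 13.6 in ET1-like and 3.19, 1.37 and 2.10 in ET4-like nuclei. ET2-like, ET1-like and ET4-like nuclei did not overlap with each other in Miat. Miat is among the 10 leading genes of the M2-like subcluster, so its level there belongs to what defines the subcluster.

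At 2000 UMIs per nucleus, Miat would be found in 34.8%, 29.1% and 29.3% of M2-like nuclei in mice 1, 2 and 3, and on average in 11.4% ± 1.87 (SD, n = 3 mice) of M1-like, 9.71% ± 2.94 of M3-like, 8.97% ± 2.52 of T1-like and 0.448% ± 0.204 of ET4-like nuclei. With all UMIs the M2-like share was 87.7% at a median of 20781 UMIs and the ET4-like share 2.40% at 10419. The ET4-like share at equal depth lies below the 1.94% of inhibitory-neuron-like nuclei.

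Meg3 was highest in M1-like nuclei, at 1.21%, 1.41% and 1.47% of UMIs, and lowest in ET4-like nuclei, at 0.530%, 0.668% and 0.668%. M1-like nuclei of mouse 1 number 14. M1-like nuclei did not overlap with M2-like ones (1.16%, 1.19% and 1.18%), and ET4-like nuclei lay below every library of the other 9 subclusters. Mirg ran from 112 ± 10.7 CPM in ET4-like to 207 ± 3.51 in M2-like nuclei (SD, n = 3 mice), and each neighbouring pair in its order overlapped. Snhg11 had another order, with the highest mean in T1-like nuclei (0.782% ± 0.0693) and M1-like nuclei near its lower end (0.511% ± 0.0271), while ET4-like nuclei were again lowest (0.4999% ± 0.0395).

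**Figure D4:**
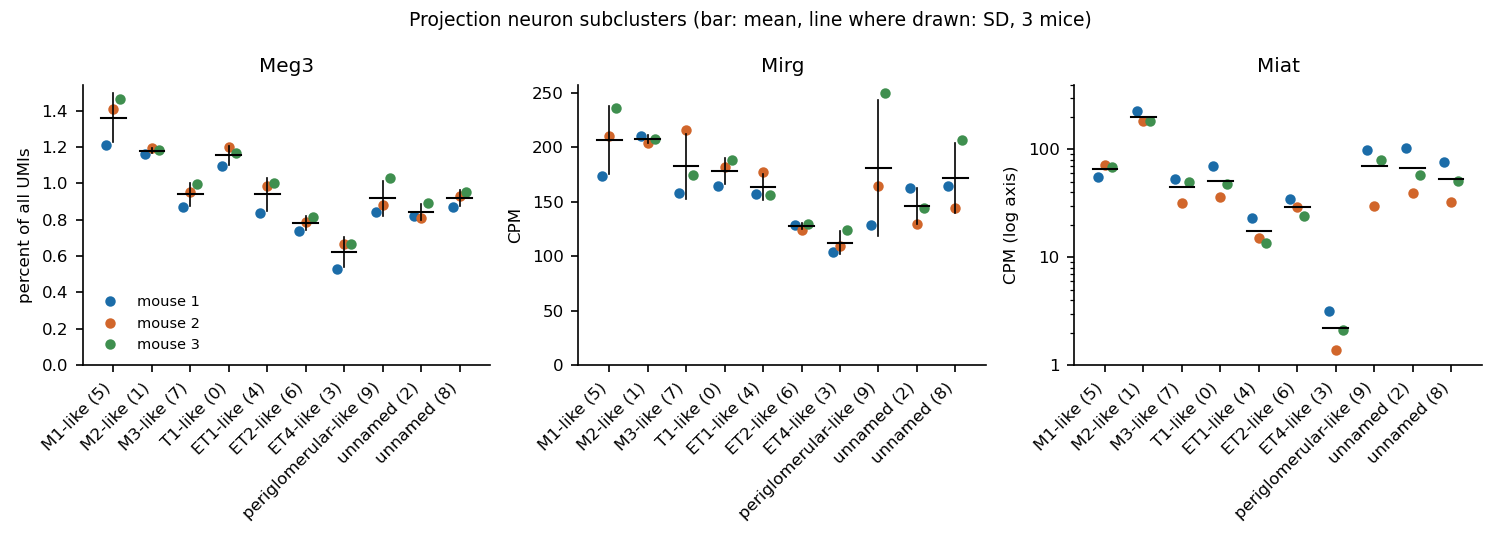
Meg3 (percent of all UMIs), Mirg (CPM) and Miat (CPM, logarithmic axis) in the 10 subclusters, whose numbers stand in brackets and of which subcluster 9 is periglomerular-like. There is 1 point per mouse, a bar at the mean and, in the first 2 panels, a line of 1 SD over 3 mice. The ET4-like subcluster has the lowest mean for all 3 genes, and Miat spans from 2.22 CPM there to 199 CPM in M2-like nuclei.

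Across the 21 clusters Meg3, Mirg and Snhg11 moved together, and the following correlations are descriptions of log2(CPM + 1) over clusters that share libraries and differ in depth. Pearson's r was 0.970 between Meg3 and Mirg, 0.943 between Meg3 and Snhg11 and 0.927 between Mirg and Snhg11. Over the 15 neuronal clusters these were 0.981, 0.876 and 0.884. Miat had an r of 0.503 with Meg3 over all clusters and 0.750 over the neuronal ones, Neat1 had -0.672 and -0.173, and Malat1 had an r between -0.391 and 0.143 with every other member. Meg3, Mirg and Snhg11 also followed the median UMI number of the clusters (r 0.804, 0.856 and 0.784 with its log2), and the part of depth in that relation was not tested.

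**Figure D5:**
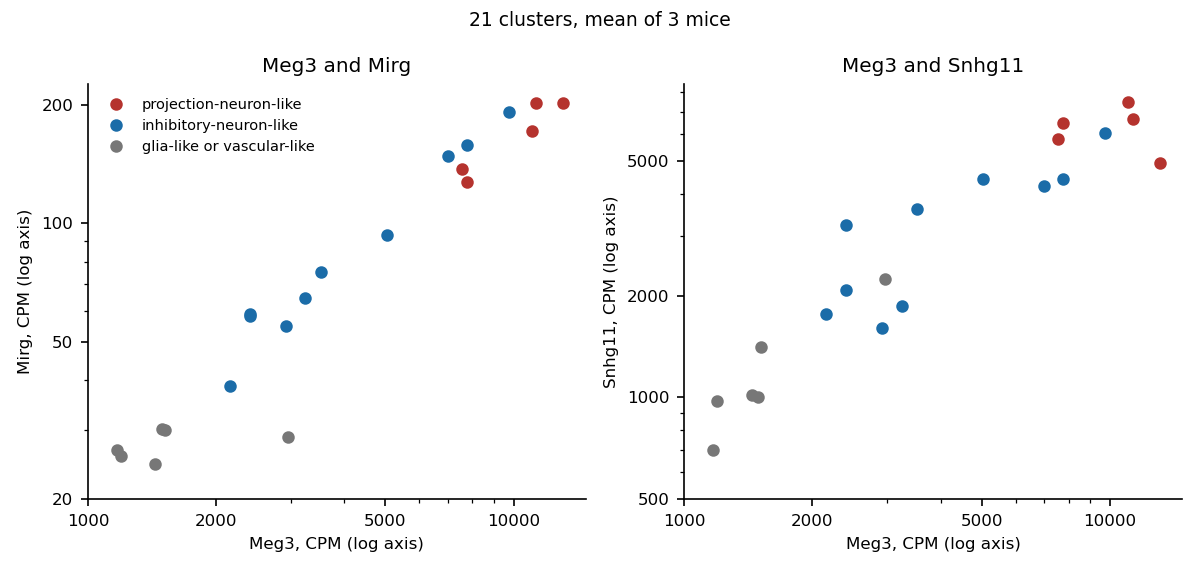
Mean CPM over 3 mice of Mirg (left) and Snhg11 (right) against Meg3 (horizontal axes, all axes logarithmic) in 21 clusters, coloured by class. Both panels rise together, with r 0.970 and 0.943, and the projection-neuron-like clusters lie toward the upper right, with the inhibitory-neuron-like cluster 17 among them.

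The genes with the most similar pattern were picked by r over the 21 clusters among 7851 genes of at least 20 CPM. For Meg3 they were Gm26906 (0.976), which overlaps Meg3 on the opposite strand, Mirg and Pcnx2 (0.951). For Mirg they were Meg3, Gm26906 (0.961) and Rtl1 (0.956), the paternally expressed retrotransposon-like gene of the same domain. For Snhg11 they were Peg3 (0.949), an imprinted gene on another chromosome, Meg3 and Cacna1a (0.942), a calcium channel subunit of synapses. Miat was closest to Garnl3 (0.906), Unc5d (0.836), a netrin receptor, and Sorcs3 (0.811). For Neat1 the leading genes were Gorasp2 (0.914), Agmo (0.912) and Naxe (0.904), and for Malat1 Mul1 (0.801), 1110065P20Rik (0.786) and Ccdc191 (0.755), which is the weakest set.

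Between Meg3 and Mirg in the domain, 3 further genes were counted on either strand beside the Meg3 antisense row. Rtl1 had 45.5 ± 3.82 CPM in projection-neuron-like and 24.8 ± 3.55 in inhibitory-neuron-like nuclei, B830012L14Rik 33.3 ± 1.88 and 13.9 ± 3.06, and Gm26945, which lies inside the Rian interval, 6.79 ± 0.598 and 4.18 ± 0.657 (SD, n = 3 mice). Gm26906 had 58.8 ± 5.30 and 25.4 ± 4.04 CPM. Each of these stood higher in projection-neuron-like nuclei, as Meg3 and Mirg did. Of the Dlk1-Dio3 list of 8 neighbours that are no members, 5 could be tested in that comparison and 1, Rtl1, was called higher, against 12.8% of all genes (log2 fold change 1.05, SE 0.31, edgeR adjusted p 0.0082, not called by DESeq2), with a list median of 0.15 against 0.03 over all genes. In glia against neurons Rtl1 was lower (-1.65, SE 0.25, edgeR adjusted p 7.3e-06), 1 of 5 tested against 10.1% of all genes, and in mitral against tufted nuclei 0 of 6 were called by edgeR or DESeq2, with 1 at an unadjusted p under 0.05.

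Genes that encode protein partners of these RNAs were counted next. Their RNA in nuclei was measured and no protein was, although they are named below by their proteins. Of 14 tested paraspeckle proteins, such as Nono and Sfpq, and of 12 nuclear speckle and splicing proteins, such as Son and Srrm2, 0 were called in each of the 3 comparisons by edgeR, and 0 by DESeq2, against 9.25% to 23.7% of all genes by edgeR. At an unadjusted p under 0.05, edgeR gave 2 to 4 paraspeckle and 2 to 5 speckle proteins in a comparison. At the edgeR adjusted p alone, which 44.4% of all genes passed in glia, 3 paraspeckle proteins were lower there, and 2 speckle proteins were higher and 3 lower. The paraspeckle median log2 fold change in glia was -0.17 against -0.07 over all genes. In projection against inhibitory neurons that count was 2 lower, with a median of -0.04 against 0.03. The large difference in Neat1 between glia and neurons was thus not shared by a called RNA of a paraspeckle protein.

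Of 8 splicing factors related to Miat, 2 were called lower and 0 higher in projection against inhibitory neurons, a share near the 23.7% of all genes called, with a median of -0.83 against 0.03 over all genes. Rbfox3, a neuronal splicing factor, stood at 32.2 ± 23.7 against 390 ± 16.5 CPM (log2 fold change -3.44, SE 0.57, edgeR adjusted p 2.5e-05), and Qk, the quaking splicing factor known to bind Miat, at 61.3 ± 35.7 against 600 ± 27.3 CPM (-3.13, SE 0.39, 4.8e-07). In glia against neurons Qk was called higher (3.03, SE 0.25, edgeR adjusted p 1.2e-09) and 3 of 8 were called lower, against 9.45% and 10.1% of all genes, among them Celf3 (-1.62, SE 0.22) and Rbfox1 (-1.38, SE 0.40). In mitral against tufted nuclei Rbfox1 was the single call of 8, against 9.25% of all genes, lower at -2.17 (SE 0.25, edgeR adjusted p 3e-08), with a median of 143.6 against 669 CPM over libraries.

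Snhg14 lies in the Prader-Willi and Angelman domain. Ube3a, which overlaps the end of Snhg14 on the opposite strand, had 1353 ± 80.3 CPM in projection-neuron-like and 872 ± 64.6 in inhibitory-neuron-like nuclei (SD, n = 3 mice). Of 7 tested genes of the domain, 3 were called lower in projection neurons, against 10.9% of all genes, among them Atp10a (-3.05, SE 0.38, edgeR adjusted p 4.8e-07) and the GABA receptor subunit Gabra5 (-3.01, SE 0.61, 0.00034), and 0 higher. In mitral against tufted nuclei 2 of 7 were called higher, against 5.69% of all genes, the splicing component Snrpn (1.66, SE 0.15, edgeR adjusted p 2.9e-10) at 112 ± 32.1 against 38.2 ± 24.0 CPM, and Gabrg3 (1.24, SE 0.26, 0.00047), whose mean CPM in mitral-like libraries was 206 (median 64.6), below the mean of 359 (median 11.5) in the tufted-like ones. In glia 3 of 7 were called lower, against 10.1% of all genes, among them Snrpn (-1.94, SE 0.20).

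Of 13 tested nuclear or neuronal long noncoding RNAs outside the members, 1 was called higher in projection neurons, against 12.8% of all genes. Another 3 were called lower, against 10.9%. Pantr1 was the higher one (2.25, SE 0.27, edgeR adjusted p 4e-07). Of the 3 lower ones, Dlx6os1 (-3.76, SE 0.57, 9.4e-06) also served as an inhibitory marker, so its call is no finding. Airn was lower too (-2.03, SE 0.41, 0.00027). In mitral-like nuclei Rmst was called higher, 1 of 13 against 5.69% of all genes (3.66, SE 0.46, edgeR adjusted p 1.5e-07), with 1.31 to 384 CPM in mitral-like and 0 to 16.0 in tufted-like libraries. In glia Nespas was higher (1.21, SE 0.41) and Mir124a-1hg, the host of a neuronal microRNA, lower (-1.96, SE 0.20), 2 of 13 against 19.5% of all genes. Of the other snoRNA hosts, 0 of 5 were called in projection neurons and 0 of 6 in mitral-like nuclei by edgeR or DESeq2, with 0 at an unadjusted p under 0.05 in both, and 1 of 5 in glia, Snhg18 (2.34, SE 0.68, edgeR adjusted p 0.0067), against 19.5% of all genes.

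Genes of immature neurons were counted because such neurons migrate into the OB as inhibitory neurons. Of 5 tested, 4 were called lower in projection-neuron-like than in inhibitory-neuron-like nuclei, against 10.9% of all genes, with a list median of -2.11 against 0.03 over all genes. Among them were Igfbpl1 (-3.05, SE 0.32) and Dlx1 (-3.21, SE 0.42), whose level helped to name the classes and is no finding. The 4 calls and the list median include Dlx1, which adds no support to either. In glia Dcx was the single call of 5 (-1.01, SE 0.26), against 19.5% of all genes. In mitral-like nuclei Cd24a was the single call of 6 (-1.21, SE 0.46, edgeR adjusted p 0.046), against 9.25% of all genes, at a level of at most 10.6 CPM. DESeq2 called neither Dcx nor Cd24a in these comparisons.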

How the data were processed

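Single-nucleus libraries of 3 mice (1 group, 1 library each) were analysed from deposited UMI counts of genes in barcodes. Cell Ranger 3.0.2 had produced them on GRCm38 (mm10), according to the submitters' notes. The authors deposited a table of retained nuclei with cluster, subcluster, totals and the percent of mitochondrial UMIs; 6 of its numeric columns were not used. No cell type is given there, so names were assigned by marker lists: a marker counted as carried at 25% of its highest cluster level (50% for subclusters), and a name needed at least 3 and more than a share of 0.5 of the listed ones, with no other type leading the top 10 genes. Members and lists were chosen with earlier results of these data known.

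UMIs were summed per mouse and cluster, subcluster or class (at least 10 nuclei in each mouse). These sums, filtered with filterByExpr and scaled with TMM factors, were fitted over all genes with edgeR 4.0.16 (quasi-likelihood, R 4.3.3, no covariate), and p-values were adjusted by Benjamini-Hochberg over all genes. A call needed an adjusted p under 0.05 and, in contrasts, an absolute log2 fold change above 1. Glia-like means astrocyte-like, ensheathing-glia-like, oligodendrocyte-like, OPC-like and microglia-like; vascular-like nuclei entered the cluster fit only. CPM and percent are of all UMIs of a library, without scaling factors. Detection at 2000 UMIs was computed as an expected share, leaving out shallower nuclei (7 of 7415 projection-neuron-like and 28 of 21325 inhibitory-neuron-like). Doublets were not called; nuclei above 3 times the median UMIs of their cluster and mouse were left out as an alternative. Named genes were the members, the 3 genes most correlated with each, and up to 2 called genes per list and direction.

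The libraries compared come from the same mice, which pairs them: deviations from group means correlated with a mean r of 0.134 within a mouse (63 pairs) and -0.0661 between mice (126 pairs), and with r of 0.340, 0.429 and 0.550 between the projection and inhibitory libraries of mice 1, 2 and 3. The block was an alternative, since the study states no such term. Other alternatives were DESeq2 1.42.0, library size scaling, no low count filter, Malat1 left out, stricter nucleus filters and leaving out each mouse. On simulated counts with 200 genes changed 4-fold, 76% were recovered in the cluster fit (16622 genes), 95% in mitral-like against tufted-like (13715) and 85.5% in glia-like against neuron-like (12754). False calls made up 3.8%, 1.04% and 5.52% of the calls in these fits. Recovery was counted at the adjusted p alone. The simulated libraries held no pairing by mouse, so these shares do not cover that feature of the data. Sequences were read from GENCODE transcripts (GRCm38) and RefSeq tables (GRCm38.p6). A gene that the rule for named genes would name is not reported here. Contrasts of single clusters with the mean of the others are not reported, since those clusters were picked from the ranking.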

Additional observations from a re-analysis of the deposited data

Results flagged for a closer look

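Barcodes called as cells but not retained by the authors, 1873, 8724 and 2123 in mice 1, 2 and 3 with median totals of 785, 732 and 808 UMIs, entered no comparison, and all 6 measured genes had UMIs there above the limit that a count of 0 allows (0.266 CPM). Malat1 took a mean of 3.98% of their UMIs (4.83%, 1.56% and 5.54%), Meg3 0.448% (0.620%, 0.138% and 0.587%) and Snhg11 0.314% (0.429%, 0.102% and 0.410%). Mirg stood at a mean of 83.6 CPM, Miat at 59.7 CPM and Neat1 at 5.30 CPM. Mouse 2 was the lowest for Malat1, Meg3, Snhg11, Mirg and Miat. In mice 1, 2 and 3 the Malat1 share of retained nuclei was 7.64%, 9.37% and 9.82%.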

How the results depend on the processing

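No direction of a called result reversed. Among the main values set against an alternative, 450 counted as the same, 16 counts, shares or gene lists moved, 3 tests passed newly and 7 were lost. The same meant a test on its side of the threshold, or a count, share or list of similar genes that changed little. A change of sign between fits that both failed also counted as the same, as for Malat1 and Neat1 between projection and inhibitory neurons. With the mouse as a replicate block, Malat1 passed the test for any difference between clusters (edgeR adjusted p 0.02), as with DESeq2 (9.9e-05), and leaving out 1 mouse at a time gave 0.033 to 0.96. The block changed no other call at the adjusted p and fold used. Leaving out 1 mouse gave adjusted p values of 0.0018 to 0.098 for Neat1 between subclusters (edgeR), and log2 fold changes of 1.64 to 1.73 for Meg3 and 1.36 to 1.51 for Snhg11 between projection and inhibitory neurons, where 2 to 4 members were called. Without nuclei above 3 times the median UMIs, Snhg11 had 1.43 there (edgeR adjusted p 0.056). Without the low count filter 5704 genes were called there in place of 3029, with more genes tested. Without OPC-like and microglia-like nuclei, chosen after seeing the data, 3890 genes were called between glia and neurons in place of 2488, and of genes called there 37.7% were higher without the filter and 33.0% without mouse 2. With all UMIs in place of 2000, projection-neuron-like nuclei with a UMI came to 3.48% for Neat1, 100% for Meg3 and Snhg11, 77.0% for Mirg and 41.3% for Miat. Of the 3 most similar genes, a Spearman correlation kept 1 for Malat1, 0 for Neat1 and 1 for Miat, and a minimum of 100 CPM kept 0 for Malat1, Neat1 and Meg3 and 1 for Mirg. The cause was not tested where none is given. Low counts limit Neat1 in neurons and OPC-like nuclei and Mirg and Miat in small glial libraries, and 3 mice limit every comparison.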
